A study of Mus musculus with 3 samples.

Results

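The genes of the mitochondrial respiratory chain and the ATP synthase were read on 3 mouse expression arrays, 1 for normal liver, 1 for hepatocellular carcinoma (HCC) and 1 for the cell line Ymac-1. A gene was a member if its symbol in the array's annotation started with Nduf, Uqcr, Atp5 or Cox4 to Cox8, or was Sdha, Sdhb, Sdhc, Sdhd, Cyc1 or Cycs. This name rule took 87 of the 19084 named genes, read by 98 probes. The members were 33 subunits of complex I, 8 of its assembly factors, 4 subunits of complex II, 7 of complex III, 19 of complex IV and 14 of the ATP synthase (complex V), with the electron carrier cytochrome c (Cycs) and the pseudogene Uqcrh-ps1. Ndufc1, Ndufb1, Ndufb4, Uqcrb, Uqcrh, Cox7c, Atp5h, Atp5j and Atp5l belong to the same complexes and were not analysed here.

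The respiratory chain passes electrons from NADH (complex I) and succinate (complex II) through coenzyme Q, complex III and cytochrome c to oxygen at complex IV, and pumps protons across the inner mitochondrial membrane on the way. The ATP synthase lets the protons flow back through its membrane ring and uses the turning of its stalk to make ATP. Most subunits are encoded in the nucleus, and hepatocytes, which are rich in mitochondria, depend on this route for the energy of gluconeogenesis and urea synthesis.

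The normal liver was from a wild type female mouse, and the HCC was a liver tumor of a female Gnmt-/- mouse, which lacks glycine N-methyltransferase. Ymac-1 was established from a liver tumor of a Gnmt-/- mouse and was grown in DMEM. It is a single line that has been through long culture, whereas the tissues also hold blood, vessel and immune cells. The ages of the 2 mice behind the tissue arrays, and whether their RNA was pooled over animals, were not given in the sources used here. For the tissues, the study drew on array data from an earlier data set, and whether all 3 arrays were run together was not stated. The sources used here also do not say that the tumor on the HCC array gave rise to Ymac-1. Steps from tumor to line are therefore differences between arrays, not changes followed along a lineage.

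Each value is the authors' linear, background-subtracted intensity of 1 probe on 1 array, from 1 µg of total RNA labelled with Cy5. Intensities at or under 50 (the floor) were set to 50 before taking log2, and a gene counted as higher or lower once its log2 difference reached 1 in size, which is 2-fold. With 1 array per condition there was no replicate check and no test, so all differences describe these arrays. In bulk RNA, fewer cells of a type and less RNA per cell cannot be told apart. The share of probes above the floor was 38.6% in normal liver, 47.5% in the HCC and 43.2% in Ymac-1. Gnmt read 3583 in normal liver, 15.6 in the HCC and 56.1 in Ymac-1, so it was at least 71.7-fold lower in the HCC. Ymac-1 comes from a Gnmt-/- mouse, yet its Gnmt value lay just above the floor. A reading slightly above 50 therefore need not be signal. All 8 hepatocyte markers lay above the floor in both tissues, and 3 of 8 did in Ymac-1, where their summed intensity was 1039 against 180572 in normal liver and 254915 in HCC. Markers of striated muscle (0 of 11) and of male germ cells (0 of 7) were under the floor on all 3 arrays. The markers of other liver cells differed between the arrays. In normal liver, HCC and Ymac-1, in this order, summed intensities were 175, 774 and 14664 for 5 bile duct markers. They were 14003, 30247 and 123 for 7 of stellate cells and fibroblasts. For 6 of macrophages they were 2545, 4685 and 857, and for 6 of endothelium 2082, 3919.6 and 129. A sum does not describe each marker of its list. In Ymac-1 over HCC, 3 of the 5 bile duct markers were higher and 1 was lower by the 2-fold measure used below. The brightest stellate and fibroblast marker alone read 13481 in normal liver and 29179.7 in the HCC. In HCC over normal liver, 4 of the 6 macrophage markers were higher and 2 lower. The 4 white fat markers summed to 106, 7222 and 148, nearly all of it Fabp4 in the HCC (7149), with Adipoq and Lep under the floor on every array, and the 4 brown fat markers to 20.3, 549 and 36.2, with Ucp1 under the floor on every array. Erythroid markers summed to 1126 in normal liver, 12113 in the HCC and 24.8 in Ymac-1, and of the 3 markers of dividing cells 0, 2 and 3 were above the floor on the arrays in the same order. The part of these cell type differences in the results below was not tested.

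Promoter sequences of the members were searched for short motifs, and a few windows that hold a match are printed here as examples. RefSeq's promoter table (build GRCm38.p6) held windows of 300 bases, from 250 before to 50 after the transcription start, for 70 of the 87 members, and 4 of these had several windows. The windows were searched on both strands for GCATGCG, a core of the site of NRF1, a regulator of nuclear genes for mitochondrial proteins, and for CCGGAAG, a site of ETS factors such as GABPA. GCATGCG was found in 16.2% of the 74 member windows and in 3.58% of all 32851 promoters. Among genes with a mean log2 intensity of at least 8, it was found in 17.2% of 58 member windows (10 windows) and in 6.43% of all windows. CCGGAAG was found in 20.3% of member windows and in 8.86% of all promoters, and at that brightness in 25.9% of member windows and 19.1% of all. These shares are descriptions with no test. Of the 70 members with a window, 23 had at least 1 of the motifs and 4 had both, so most had neither. The median GC content was 58.5% in member windows, 61.0% in those of bright genes and 52.7% in all. A match is a run of letters and was not tested as a binding site. The following windows are written on the strand of the gene, with motif matches in capitals. Ndufaf5 (chr2:140170396-140170695, plus strand) and Ndufb6 (chr4:40279372-40279671, minus strand) had higher values in Ymac-1 than in HCC, Ndufa6 (chr15:82354242-82354541, minus strand) and Atp5e (chr2:174464052-174464351, minus strand) were lower, and Sdhb (chr4:140961021-140961320, plus strand) was nearly level over the arrays.
Ndufaf5: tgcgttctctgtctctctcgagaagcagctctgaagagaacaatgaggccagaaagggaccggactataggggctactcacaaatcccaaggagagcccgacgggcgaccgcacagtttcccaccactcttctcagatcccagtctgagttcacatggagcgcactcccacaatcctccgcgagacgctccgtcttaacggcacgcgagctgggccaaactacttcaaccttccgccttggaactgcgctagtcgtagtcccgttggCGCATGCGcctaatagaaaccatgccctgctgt
Ndufb6: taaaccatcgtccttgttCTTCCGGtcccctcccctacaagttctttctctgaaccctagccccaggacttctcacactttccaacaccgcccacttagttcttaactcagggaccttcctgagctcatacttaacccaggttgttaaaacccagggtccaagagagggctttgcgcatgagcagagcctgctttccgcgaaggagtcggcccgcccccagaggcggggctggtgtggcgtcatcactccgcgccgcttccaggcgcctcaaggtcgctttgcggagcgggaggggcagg
Ndufa6: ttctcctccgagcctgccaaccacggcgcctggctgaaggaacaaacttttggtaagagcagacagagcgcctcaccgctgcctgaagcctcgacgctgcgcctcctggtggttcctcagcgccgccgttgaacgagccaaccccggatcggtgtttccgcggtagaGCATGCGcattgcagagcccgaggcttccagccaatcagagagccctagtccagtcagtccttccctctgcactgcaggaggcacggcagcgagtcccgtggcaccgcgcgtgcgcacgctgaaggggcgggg
Atp5e: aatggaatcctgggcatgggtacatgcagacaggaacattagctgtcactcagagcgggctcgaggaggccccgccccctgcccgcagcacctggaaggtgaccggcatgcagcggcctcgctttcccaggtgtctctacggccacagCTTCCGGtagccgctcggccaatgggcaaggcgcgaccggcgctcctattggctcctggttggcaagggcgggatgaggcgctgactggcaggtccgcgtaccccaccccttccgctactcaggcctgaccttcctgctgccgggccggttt
Sdhb: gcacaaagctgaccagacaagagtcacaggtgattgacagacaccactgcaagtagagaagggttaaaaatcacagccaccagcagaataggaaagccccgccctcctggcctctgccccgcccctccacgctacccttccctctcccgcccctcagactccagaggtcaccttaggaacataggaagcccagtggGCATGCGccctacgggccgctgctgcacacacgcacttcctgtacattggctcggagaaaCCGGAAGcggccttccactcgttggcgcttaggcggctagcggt

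In the Ndufaf5 window the NRF1 core matched on both strands with overlapping letters, downstream of the start. It matched upstream of the start in Ndufa6 and Sdhb, and the ETS site matched upstream in Ndufb6 and Atp5e and downstream in Sdhb. Among these printed windows, which all hold a match, each motif was found in a higher and in a lower member. Whether the motifs bear on the differences was not tested. Among the 8 members past 2-fold upward from HCC to Ymac-1, all with a window, 1 had the NRF1 core and 1 the ETS site. Of the 2 lower members with a window, 1 had the NRF1 core and 1 the ETS site. Of 60 members that were neither higher nor lower, 10 had the NRF1 core and 13 the ETS site. The sites' own factors were read as well: Nrf1 was 13.1 in normal liver, 16.8 in the HCC and 109 in Ymac-1, above the floor on the last array only. Gabpa read 485, 466 and 773 on the same arrays.

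Of the 87 members, 69 were above the floor on all 3 arrays, 15 were at or under it on all 3, and Atp5c1, Atp5o and Cox5b crossed it. The HCC array was brighter than the normal liver array as a whole: over the 7687 genes that exceeded the floor everywhere, the log2 difference had a median of 0.65 for HCC over normal liver, 0.06 for Ymac-1 over HCC and 0.72 for Ymac-1 over normal liver. For the 69 members the same medians were 0.32, 0.19 and 0.49. Relative to the array as a whole, members were therefore lower by 0.33 in HCC over normal liver, higher by 0.13 in Ymac-1 over HCC, and lower by 0.23 in Ymac-1 over normal liver. The 3 comparisons share arrays and are not independent of each other. The summed intensity of the members was 310273 in normal liver, 394268 in the HCC and 407824 in Ymac-1, which was 2.66%, 2.40% and 2.72% of the sum over all named genes. As intensities stood, 39 of the 69 members were highest in Ymac-1, 26 in HCC and 4 in normal liver, namely Sdha, Ndufa9, Ndufb7 and Ndufb10. In 26 of the 69 the value was higher at each step from normal liver to HCC to Ymac-1. In 3 (Sdha, Ndufb7 and Ndufb10) it was lower at each step. The same counts were not made over all genes, whose medians over normal liver were 0.65 in HCC and 0.72 in Ymac-1. They are therefore not shown to be particular to the members.

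**Figure D1:**
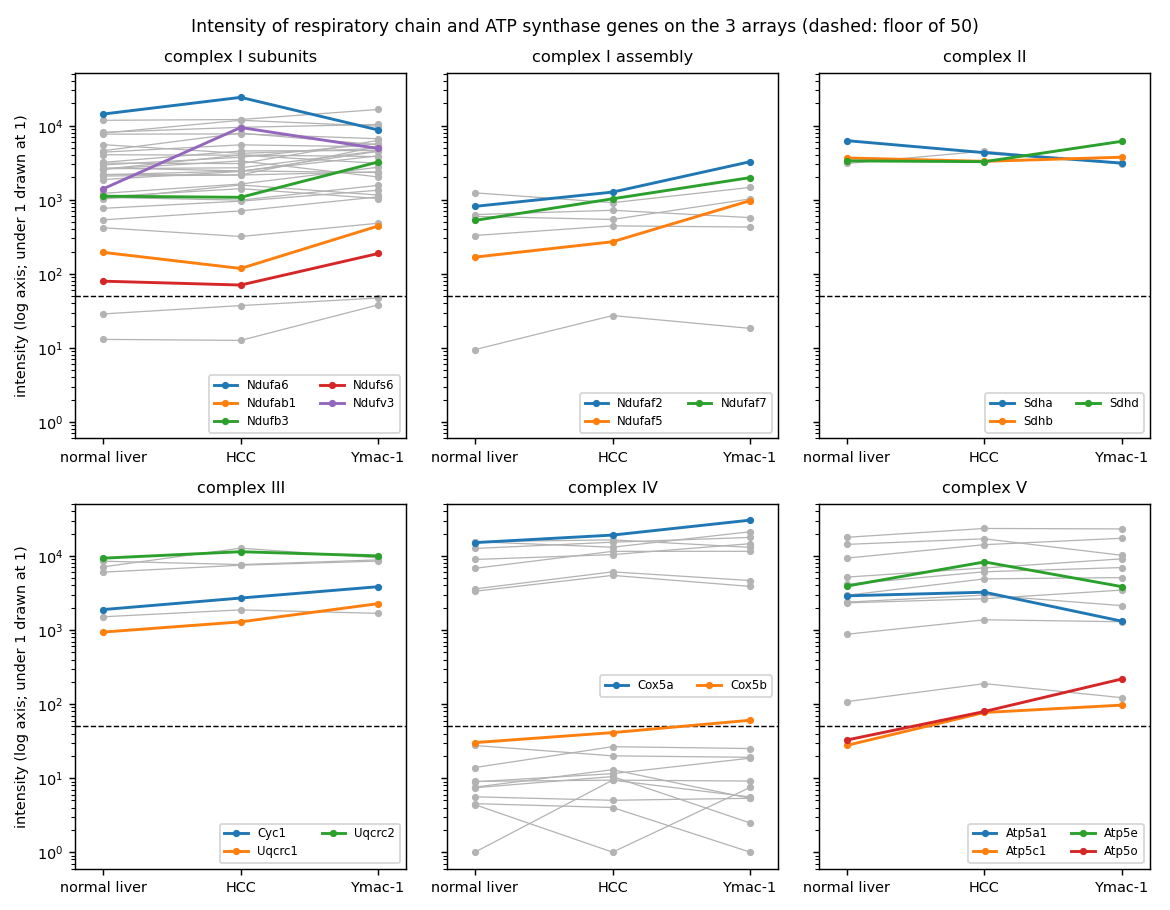
Intensity (log axis) of each member on the normal liver, HCC and Ymac-1 arrays, in a panel for each complex, with named members in colour, the others in grey and the floor of 50 dashed. Most lines are nearly flat, Ndufv3 stands out by its step from 1402 to 9457, and the lines under the dashed one are mostly in the complex IV panel.

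In HCC over normal liver, 2 members were higher and 0 were lower by the 2-fold measure, out of 87. Over all named genes 15.9% were higher and 0.749% lower, and over the 6065 genes with a mean log2 of at least 8 (an intensity of 256) these shares were 24.96% and 1.24%. The members higher in HCC, Ndufv3 and Atp5e, made up 2.30% of all members, well under the background. Of the 69 members above the floor, 57 lay below the all-gene median of 0.65 and 12 above it. Complex V came closest to that median, with 0.49 over 12 members, followed by the complex I assembly factors with 0.43 over 7. Complexes III and IV had medians of 0.31 each, complex I subunits 0.22 and complex II -0.09.

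In Ymac-1 over HCC, 8 members were higher and 3 were lower, which is 9.20% and 3.45% of 87. Of all named genes 14.7% were higher and 15.9% lower, and of the bright genes 24.6% and 25.95%. Of the 66 bright members 7.58% were higher and 4.55% lower. The share higher and the share lower were thus both smaller among the members than over the array as a whole. Of the 69 members above the floor, 38 lay above the all-gene median and 31 below it. Assembly factors of complex I had a median of 0.92 over 7 genes. The subunits without assembly factors had 0.14 over 62.

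In Ymac-1 over normal liver, 16 members were higher and 2 lower, against 23.3% and 9.41% of all named genes, and 42.95% and 18.8% of bright genes. The members' own shares were 18.4% and 2.30%. Medians were 0.79 for the assembly factors, 0.54 for complex I subunits, 0.47 for complexes IV and V, 0.40 for complex III and 0.00 for complex II, all but the first below the all-gene median of 0.72.

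**Figure D2:**
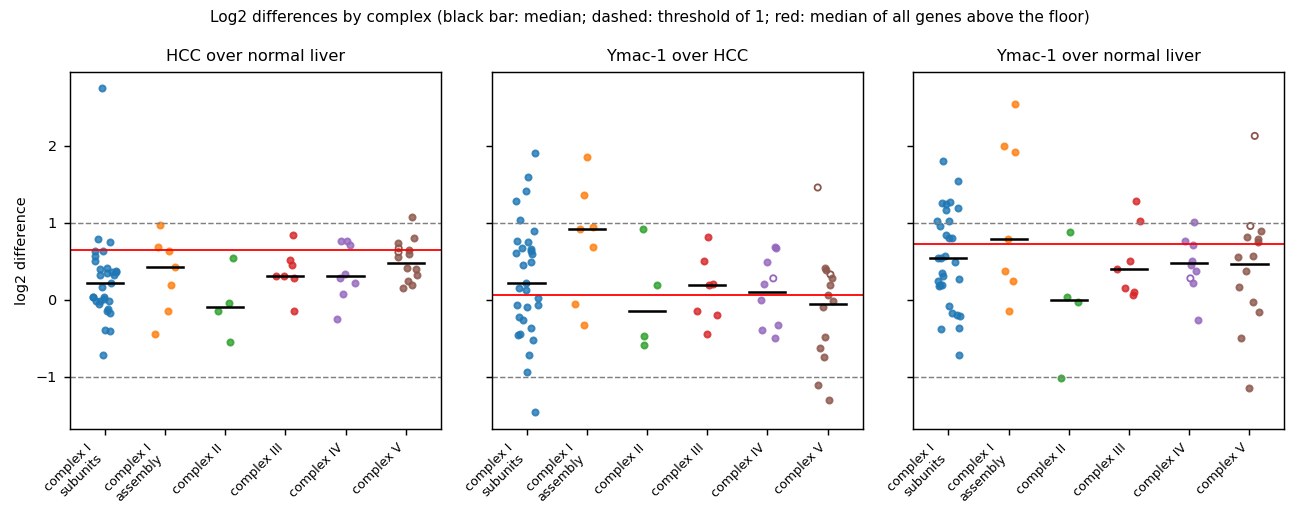
Log2 difference of each member (points) in the 3 comparisons, by complex, for members above the floor on at least 1 of the arrays compared; open points crossed the floor over the 3 arrays. Black bars are medians of the filled points, dashed lines mark differences of 1 and the red line marks the median of all genes above the floor, which lies above 57 of 69 members in HCC over normal liver.

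In the comparisons with normal liver, the direction of these counts depends on how the arrays are scaled to each other. The deposited table does not show that scaling. In Ymac-1 over HCC more members were higher than lower under each scaling tried, by least with centring (7 higher and 4 lower). With each array centred on genes above the floor, 1 member was higher and 5 lower in HCC over normal liver, and 5 higher and 6 lower in Ymac-1 over normal liver. Division by the array median, which at 15.8, 38.5 and 27.6 lay under the floor on every array, gave 29 members lower in the first comparison and 23 higher and 0 lower in Ymac-1 over HCC. A scaling that multiplies a whole array cannot move the members against the other genes, so of the scalings tried only quantile normalization bears on that distance. With it the members' median lay 0.10 below that of all genes in HCC over normal liver, in place of 0.33, and 0.15 above it in Ymac-1 over HCC, in place of 0.13. In Ymac-1 over normal liver it lay 0.01 below, in place of 0.23, so this distance was nearly gone.

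The bright members varied less over the arrays than all genes past the same cut in brightness, which is a description with no test. Within that cut, members and genes were not matched for brightness. Of the 66 members with a mean log2 of at least 8, 49 (74.2%) had all 3 arrays within 2-fold of each other. Of the 6065 genes past that cut, 27.1% did. The median range over the 3 arrays was 1.64-fold for these members and 2.87-fold for the genes. For Ymac-1 over HCC the interquartile range of the log2 difference was 0.99 over members and 2.04 over genes. It was 0.77 against 2.20 for Ymac-1 over normal liver, and 0.53 against 0.73 for HCC over normal liver. Under the other scalings the share within 2-fold on all arrays was 40.9% to 77.3% of members and 26.7% to 39.0% of genes. For HCC over normal liver alone, division by the array median put fewer members (57.6%) than genes (70.6%) within 2-fold, the reverse of 97.0% and 73.8% as deposited.

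**Figure D3:**
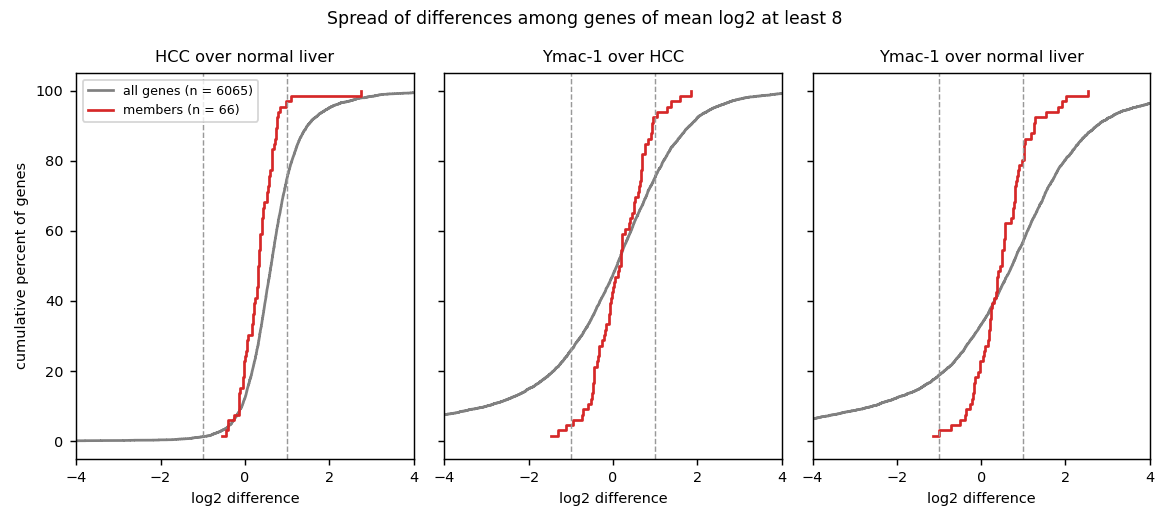
Cumulative percent of genes (y) by log2 difference (x) for the 66 members (red) and all 6065 genes (grey) with a mean log2 of at least 8. The red curve is steeper, with 87.9% of members and 49.4% of genes within 2-fold in Ymac-1 over HCC.

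Complex I feeds electrons from NADH into the chain. Its catalytic core carries the flavin and the iron-sulfur clusters. Of the 6 measured core genes, 2 were past 2-fold in Ymac-1 over normal liver and 0 in the other comparisons. Among the 5 bright core genes this was 40.0% higher, close to the 42.95% of all bright genes. Ndufs1 read 766 in normal liver, 958 in the HCC and 1346 in Ymac-1. Ndufs3 read 535, 707 and 1094. Ndufs8, which binds iron-sulfur clusters near the coenzyme Q site, read 1220.3, 1632 and 2752. These 3 were highest in Ymac-1, and against normal liver Ndufs8 was 2.25-fold and Ndufs3 2.05-fold higher, whereas Ndufs1 stayed at 1.76-fold. None of them was past 2-fold between HCC and Ymac-1. Ndufs7 read 4393, 5517 and 5186. The flavin-binding Ndufv1 read 7685, 7756 and 6669. Both stayed within 1.26-fold over the 3 arrays. Ndufv2, which carries an iron-sulfur cluster beside Ndufv1, was under the floor everywhere with 28.7, 37.2 and 47.1, and has no fold. Under all 4 other scalings Ndufs3 and Ndufs8 were under 2-fold.

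Ndufv3, a small accessory subunit of the NADH-binding module, had the highest difference of any member between the tissues. It read 1402 in normal liver, 9457 in the HCC and 4929.7 in Ymac-1, a log2 difference of 2.75 (6.75-fold) for HCC over normal liver. Its other probes gave smaller differences: 1 read 147, 316 and 317 (1.10) and the other 1341, 2238 and 1779.9 (0.74). All 3 probes were lowest in normal liver, and the size of the step depended on the probe. The sources used here do not say which transcripts each probe reads. The call held under all 4 other scalings, at 1.47 to 2.10.

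Among the accessory subunits of the membrane arm, the B series was level between the tissues and split in the line. Its 9 members lay between -0.40 and 0.37 in HCC over normal liver, with a median of -0.02. Ndufb3 read 1117 in normal liver, 1079 in the HCC and 3242 in Ymac-1, so the line was 3.01-fold above the tumor. Ndufb6 read 2194, 2162 and 5273, with the line 2.44-fold above the tumor. Both were alike in the tissues, to within 1.04-fold, and higher in the line. The other 7 stayed within 2-fold in all 3 comparisons. Ndufb9 was the lowest in Ymac-1 over HCC at -0.72, with 2599.6, 3347 and 2032. Ndufb11, the lowest between the tissues at -0.40, read 419, 319 and 482. Ndufb7, the lowest against normal liver at -0.38, read 4056, 3998 and 3107. Ndufb3 and Ndufb6 remained past 2-fold over HCC under all 4 other scalings, and past 2-fold over normal liver under none.

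The A series, accessory subunits of several modules, held the extremes of complex I in Ymac-1 over HCC. Ndufab1, the mitochondrial acyl carrier protein, which also serves fatty acid synthesis in the matrix, read 195 in normal liver, 118 in the HCC and 443 in Ymac-1, or 3.76-fold higher in the line than in the tumor. It was also the lowest member in HCC over normal liver, at -0.72. Ndufa6, a subunit of the LYR motif family that docks this acyl carrier protein on complex I, read 14367, 24162 and 8755. Its value in the line was 2.76-fold below that in the tumor. These partners thus differed in opposite directions between the tumor and the line. Ndufa5 read 3130.5, 3081 and 6340.3, 2.06-fold from tumor to line. Ndufa11, a subunit at the base of the membrane arm, read 1877, 2413 and 4506 with the line 2.40-fold above normal liver. Ndufa10 read 4593, 7938 and 5529, the highest difference of the series between the tissues at 0.79. The other 8 A series members were within 2-fold in every comparison. The Ndufa6 call was lost under 1 scaling (-0.98) and that of Ndufa5 over HCC under 1 (0.97). That of Ndufa11 was lost under all 4 other scalings, at 0.46 to 0.68, and at 0.63 with the mean over its probes, of which 1 was under the floor on all arrays.

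Ndufs6, the zinc-binding subunit that is added late to the NADH module, was dim, with 79.5 in normal liver, 70.5 in the HCC and 188 in Ymac-1. From tumor to line this was 2.66-fold, and with a floor of 100 in place of 50 the difference was 0.91, under 2-fold. Ndufs4, which stabilizes the same module, was bright and level, at 8149, 9521 and 10405. Its second probe read 2445, 3656 and 4012. Ndufc2 was under the floor on all arrays.

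Assembly factors help to build complex I and are not part of the finished enzyme. Ndufaf5, a hydroxylase that modifies Ndufs7, read 168 in normal liver, 271 in the HCC and 975 in Ymac-1. Ndufaf2, a chaperone of a late assembly stage, read 814, 1269 and 3268. Ndufaf7, a methyltransferase, read 526, 1030.5 and 1993. All 3 were higher at each step from normal liver to HCC to Ymac-1. Against normal liver Ndufaf5 was 5.80-fold, Ndufaf2 4.01-fold and Ndufaf7 3.79-fold higher in Ymac-1, and these differences were past 2-fold under all 4 other scalings. Against HCC, Ndufaf5 (3.60-fold) and Ndufaf2 (2.58-fold) were past 2-fold and Ndufaf7 (1.93-fold) was not. Of the 7 bright assembly factors, 42.9% were higher in Ymac-1 over normal liver and 28.6% over HCC. Of all bright genes 42.95% and 24.6% were, so these shares were close to the background. Ndufaf5 and Ndufaf7 each had a second probe under the floor on all arrays, and with the mean over probes Ndufaf5 over HCC (0.92) and Ndufaf7 over normal liver (0.96) were under 2-fold. Ndufaf6 read 596, 542 and 1027. Ndufaf1 read 1240.3, 913 and 1468. Both were lowest in the HCC and highest in Ymac-1. Ndufaf3 read 329, 444 and 428. Ndufaf8 read 630.2, 721 and 574. These were nearly level, within 1.35-fold. Ndufaf4 was under the floor on all arrays.

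Complex II is both an enzyme of the TCA cycle and an entry point of electrons. Sdha, its flavin-bearing catalytic subunit, read 6289 in normal liver, 4324 in the HCC and 3126 in Ymac-1, a step down at each stage. The line was 2.01-fold below normal liver, a difference that was larger, at -1.49 to -1.81, under the other scalings. Sdhb, the iron-sulfur subunit, read 3668, 3306 and 3759 and varied by 1.14-fold. The membrane anchors went different ways. Sdhc read 3089, 4535 and 3030.2, highest in HCC. Sdhd read 3351, 3269 and 6167, highest in Ymac-1 by 1.89-fold over HCC. Each of the 4 subunits thus had a course of its own over the arrays, and Sdha alone reached 2-fold.

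Complex III takes electrons from coenzyme Q to cytochrome c. Cyc1, cytochrome c1, read 1891 in normal liver, 2707 in the HCC and 3854 in Ymac-1. Uqcrc1, a core protein of the complex, read 939, 1290.0 and 2276. Both were higher at each step and were past 2-fold in Ymac-1 over normal liver only, at 2.04-fold and 2.42-fold; under the 4 other scalings neither was. Uqcrfs1, the Rieske iron-sulfur protein, read 6055, 7514 and 8543. Uqcrc2, the partner of Uqcrc1, read 9351, 11438 and 10041. Uqcrq, a small subunit, read 8517, 7671 and 8871. These 3 varied by 1.41-fold at most. Uqcr11 read 1512, 1873 and 1682. Uqcr10 read 7139.6, 12772 and 9419.7. With these, 5 subunits stayed within 1.79-fold over the 3 arrays.

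Complex IV hands electrons to oxygen, and several of its subunits exist in a general form and in a form of muscle, testis, lung or low oxygen. Among the general forms, Cox4i1 was 15644 in normal liver, 16518 in the HCC and 13099 in Ymac-1. Cox5a was 15175, 19181 and 30536. Cox5a was the only complex IV member past 2-fold, at 2.01-fold in Ymac-1 over normal liver, and it passed under 1 of the 4 other scalings. Cox6a1 was 15616, 13157 and 21283. Cox6b1 was 3344, 5473 and 3886. The first was lowest and the second highest in the HCC. Cox7a2 was 6826, 11566 and 11582, and its second probe 199, 241 and 109. The probes of Cox7a2 thus differed in Ymac-1 over HCC, at 0.00 for the brighter and -1.14 for the dimmer. Cox8a was 8985, 10454 and 14688. Ndufa4, which is counted to complex IV despite its name, was 12642, 15381 and 17830.5. Both were higher at each step, by less than 2-fold in all. The supercomplex factor Cox7a2l was 3596, 6112 and 4669, highest in the HCC.

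The tissue and condition forms gave no signal. Cox6a2, Cox7a1 and Cox8b of heart and skeletal muscle read between 1.00 and 18.6 over the 3 arrays. Cox6b2, Cox7b2 and Cox8c of testis read between 0.518 and 27.6. Cox4i2, the lung form, and Ndufa4l2, which is induced by low oxygen, read between 0.767 and 13.0. All 8 were under the floor on every array, and no switch from a general to a tissue form was seen in HCC or in Ymac-1. Being under the floor does not show that a gene was silent, since Cox6c (13.9, 26.6 and 25.1), Cox7b (7.42, 10.5 and 2.48) and Cycs (28.2, 29.1 and 18.1) were under it too, and respiring cells need these proteins. Cox5b read 30.2, 41.2 and 60.5 and passed the floor in Ymac-1 alone, where its value was close to that of Gnmt (56.1).

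The ATP synthase has a catalytic head (F1), a peripheral stalk and a membrane part (Fo) with the turning c ring. All 14 members had a positive log2 difference in HCC over normal liver, from 0.16 to 1.08; centred on all genes, only 3 of the 12 above the floor on all arrays stayed positive. Atp5e, the epsilon subunit of the central stalk, read 3926 in normal liver, 8323 in the HCC and 3855 in Ymac-1, 2.12-fold up from liver to tumor and 2.16-fold down from tumor to line. It was highest in the tumor and nearly equal in liver and line. The higher value in HCC was under 2-fold with all 4 other scalings and turned to -0.20 with division by the array median; the lower value in Ymac-1 held with 2 of 4.

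Within the head, the alpha and beta subunits, which alternate around it, differed in course. Atp5a1, the alpha subunit, read 2899 in normal liver, 3245 in the HCC and 1316 in Ymac-1. Atp5b, the catalytic beta subunit, read 878, 1377 and 1295. In the line Atp5a1 was 2.47-fold below the tumor and 2.20-fold below normal liver, whereas Atp5b was 1.06-fold below the first and 1.47-fold above the second. The lower value of Atp5a1 against normal liver held under all 4 other scalings and that against HCC under 3. Atp5c1, the gamma subunit that turns inside the head, was 27.7 in normal liver, under the floor, 77.0 in the HCC and 96.9 in Ymac-1. Atp5d, the delta subunit, read 4151, 6128 and 6987.

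The 3 genes for subunit c encode the same mature protein with different import sequences. Atp5g1 read 2329 in normal liver, 2649.9 in the HCC and 3469 in Ymac-1. Atp5g2 read 5192, 6900.2 and 9161. Atp5g3 read 17895, 23572 and 23233. All 3 were lowest in normal liver and none reached 2-fold. In the peripheral stalk, Atp5o, the oligomycin-sensitivity protein that ties stalk to head, read 32.7 in normal liver, under the floor, 79.5 in the HCC and 219 in Ymac-1. The line was 2.76-fold above the tumor and at least 4.39-fold above normal liver. Atp5pb, subunit b of the same stalk, was highest in HCC with 108, 189 and 122. The readings of these stalk genes differed in course, but both genes were dim and Atp5pb stayed within 1.74-fold. Among the small Fo subunits Atp5mpl read 14361, 17092 and 10218, lowest in Ymac-1. Atp5md read 9376, 14230.1 and 17384, highest there. Atp5j2 (2949.7, 4913 and 5112) and Atp5k (2384, 2971 and 2136) had differences between those of these genes in Ymac-1 over HCC.

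Genes that serve the chain without being members were read from lists of the same pathway. Their counts from tumor to line stand against 14.7% of all named genes higher and 15.9% lower, and against 24.6% and 25.95% of bright genes. Of 39 assembly factors for complexes I to V outside the name rule, 10 were higher (25.6%) and 1 lower (2.56%). Among the 26 bright ones 26.9% were higher, close to the share of bright genes, and 0 were lower. Their median was 0.27 over all 39, 0.70 over the bright ones and 0.89 over the 30 above the floor on all arrays. Sdhaf2, which attaches the flavin to Sdha, read 255 in normal liver, 379.7 in the HCC and 1462 in Ymac-1. Surf1, which acts early in building complex IV, read 950.3, 721 and 2365. Higd1a, which is induced by low oxygen, was the only one lower, at 167, 321 and 141. The same comparison gave 27 higher (38.0%) and 3 lower (4.23%) of 71 mitochondrial ribosomal protein genes, and 20 higher (42.6%) and 4 lower (8.51%) of 47 cytosolic ones. Their medians were 0.66 and 0.61 over all genes of the list, and 0.77 and 1.08 over those above the floor on all arrays. For the members that are subunits and carriers of the chain these medians were 0.00 and 0.14, and for all named genes 0.00 and 0.06.

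TCA cycle enzymes had a median of -0.05 in Ymac-1 over HCC, with 2 of 16 higher (12.5%) and 4 lower. Among the 14 bright ones 14.3% were higher and 28.6% lower, the second close to the share of bright genes. Idh3a read 942 in normal liver, 2099 in the HCC and 7909 in Ymac-1, and citrate synthase (Cs) 1789, 3441 and 9886. Suclg2 read 3281, 4091 and 1431, and Dlst, a part of the 2-oxoglutarate dehydrogenase complex, 4095, 5123 and 1918. The other enzymes lower in the line were Dld and Fh1. Of 19 genes for coenzyme Q synthesis and other entry of electrons, 2 were higher (10.5%) and 5 lower (26.3%), and of the 14 bright ones 7.14% and 35.7%. Coq9 read 2126, 1765 and 382. Sqor, which passes electrons from sulfide to coenzyme Q, read 4814, 8846 and 2048. This list also held Aox1, a cytosolic aldehyde oxidase that does not belong to this route, which read 2267, 2057 and 83.6. Aox1 is counted among the 5 lower genes and among the bright ones. Both shares lower would be smaller without it.

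Of 9 carriers, porins and the inhibitor of the ATP synthase, 3 were higher (33.3%) and 0 lower from HCC to Ymac-1, a share that rests on few genes. Slc25a4, an exchanger of ADP and ATP, read 112 in normal liver, 1505 in the HCC and 7271 in Ymac-1. Atpif1, which blocks the ATP synthase from running in reverse, read 554, 2362 and 5845. Over both steps the differences, 6.02 and 3.40, exceeded those of every member, of which Ndufaf5 was the highest at 2.54. Slc25a5, the other widespread ADP/ATP exchanger, was not analysed here. Among 24 regulators of mitochondrial gene expression, 6 were higher and 7 lower (29.2%) in the line. Of the 12 bright ones 3 were higher and 16.7% lower, so the share higher was close to that of bright genes. Mterf2 read 12.4, 59.4 and 248, and Myc 42.7, 579 and 1664. Ppargc1b, a coactivator of genes for respiration, read 183, 415 and 48.4, and Nrip1, a corepressor of such genes, 539, 976 and 244. The coactivator and the corepressor were both highest in HCC and lowest in Ymac-1.

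**Figure D4:**
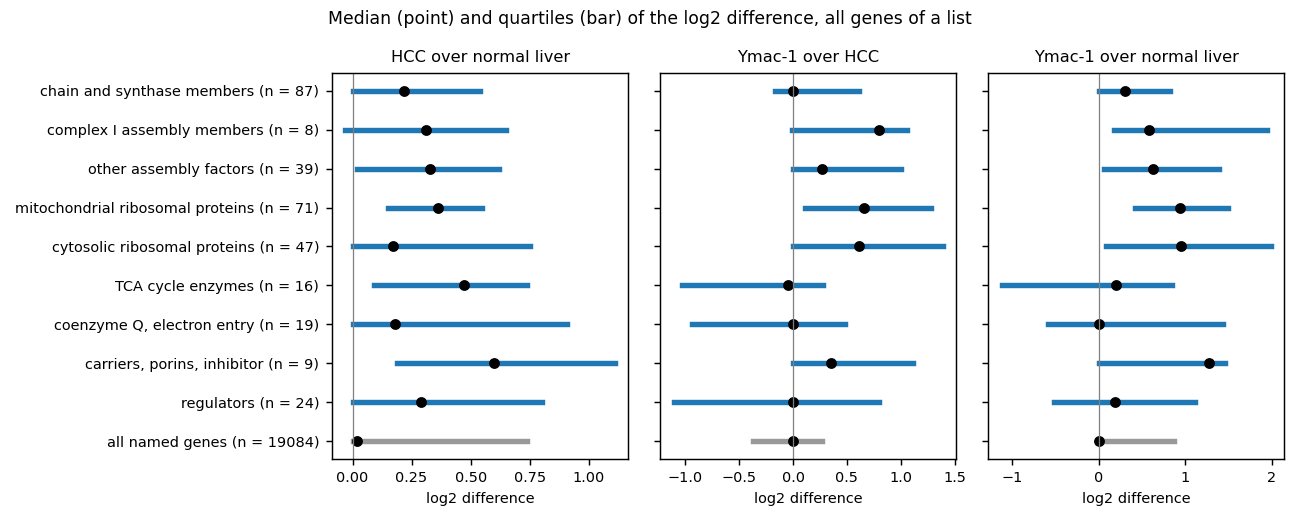
Median (point) and quartiles (bar) of the log2 difference (x) for the members and for the related gene lists (rows, with their number of genes, those under the floor included) in the 3 comparisons. In Ymac-1 over HCC the bars of the ribosomal protein lists reach farther right than that of the members, with medians of 0.66 and 0.61 against 0.00.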

How the data were processed

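RNA of 3 samples, 1 per condition, was read on Phalanx OneArrays. The authors deposited linear, background-subtracted intensities of 26423 probes. The scanner, how background was taken off and how arrays were scaled were not given in the sources used here. Gene names came from the array's annotation, which gave a symbol for 21876 probes, and promoters from RefSeq (GRCm38.p6). No genome or protein table was used.

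With a floor of 50, a gene was read by its brightest probe (mean log2 over the 3 arrays). Genes were counted at a log2 difference of at least 1, the ratio of the study's methods. The study's methods also required a P value under a cutoff. Genes were not tested here, since each condition had 1 array. The members and lists were chosen with earlier results of these data known. The genes named were the 2 highest and 2 lowest of each complex and comparison, genes with tissue forms and the catalytic core. In the lists they were the 2 highest and 2 lowest, mostly for Ymac-1 over HCC. Other members past the threshold, Ndufs4, Nrf1, Gabpa and the dimmer probes were named after their values were seen. Steps were tested on simulated data with changes planted in bright genes and larger than the threshold. That run checks the code and does not bear on differences near the threshold or the floor. Python 3.11.15, pandas 2.3.3, numpy 2.4.6 and matplotlib 3.10.9 were used.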

Additional observations from a re-analysis of the deposited data

How the results depend on the processing

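No paired analysis was possible because each condition had 1 array. The alternatives were thresholds of 1.5 and 2, quantile normalization, division by the array median, centring on genes above the floor, floors of 25 and 100, the mean over probes and each probe on its own; division by the upper quartile was chosen after seeing the data. In HCC over normal liver, members higher numbered 1 under either threshold and every other scaling and 4 with a floor of 25; members lower numbered 4 with quantile normalization, 29 with the array median, 5 with centring and 6 with the upper quartile. In Ymac-1 over HCC, 3 were higher past 1.5, 0 past 2 and 23 with the array median, and 0 were lower in each of these. In Ymac-1 over normal liver, 6 were higher past 1.5, 3 past 2, 6 with quantile normalization and 5 with each other scaling; 0 were lower past 1.5 or 2, 9 with the array median and 6 with centring or the upper quartile. The cause was not tested. Atp5e in HCC over normal liver turned to -0.20 with the array median, and of 31 called differences of single members 15 were called under all 4 other scalings. The number of arrays limits the precision, and the 15 members under the floor have no measured difference.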
